A study of Mus musculus with 2 samples.

Results

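Ccnd1, Ccnd2, Ccnd3, Cdk4, Cdk6, Cdkn1b, Cdkn2c, Rb1, Rbl1 and E2f1 are 10 genes of the G1 phase of the cell cycle, taken by symbol from the 21896 genes measured in the developing mouse cortex. All 10 were found in both libraries, and all 10 had at least 1 FPKM (fragments scaled to transcript length and to the total of mapped fragments) in both. RNA was taken at E13.5 from the germinal zones of the cortex (VZ–SVZ, ventricular plus subventricular zone) of C57/BL6 mice, with 1 control library (Rcor2fl/fl) and 1 conditional knockout library (Rcor2cko). Both genotypes carry floxed alleles of Rcor2, which encodes a partner of LSD1, a histone demethylase, in gene repression, and in Rcor2cko the floxed exons are removed by a Cre recombinase under the Nestin promoter, which acts throughout the neural lineage and not in the cortex alone. The parents were Rcor2fl/+NesCre on both sides. Rcor2fl/fl with Cre is by definition Rcor2cko, so the control carried the floxed alleles without Cre. How many embryos went into a library is not given in the sources used here.

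Progress through G1 rests on D-type cyclins (Ccnd1, Ccnd2 and Ccnd3), which bind and activate the kinases Cdk4 and Cdk6. The active kinases phosphorylate the pocket proteins Rb1 and Rbl1, which otherwise hold E2F transcription factors inactive, as Rb1 does with E2f1. The released E2F factors switch on genes of DNA replication. Cdkn2c is an INK4 inhibitor that binds Cdk4 and Cdk6, and Cdkn1b is a Cip/Kip inhibitor that acts mainly on Cdk2 complexes. In the embryonic cortex the length of G1 and the decision to leave the cell cycle go along with the switch of progenitors from self-renewal to neurogenesis, and Cdkn1b is known to accumulate in cells that leave the cycle.

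With 1 library per genotype there is no spread between replicates, and every difference given here is one between these 2 libraries. Each deposited FPKM value has a 95% interval. For the 8 genes listed with a single RefSeq transcript in Rcor2fl/fl (all but Ccnd3 and Rbl1), whole fragments could also be recovered from the steps of the FPKM scale. Their recovered numbers lay within 0.0362 of a whole number. The scaling totals were 18841661 fragments for Rcor2fl/fl and 25479849 for Rcor2cko. From the fragments an exact (Clopper-Pearson) 95% interval of the ratio was computed, which covers counting error only. Changes are given as log2 of the ratio of (FPKM + 0.1) in Rcor2cko to that in Rcor2fl/fl. In bulk tissue a change of RNA per cell and a change in the share of cells that express the gene cannot be told apart. Rcor2 itself was at 90.6 FPKM and 55.7 FPKM (log2 change -0.70, interval -0.78 to -0.63) over the whole gene, exons outside the floxed part included. The libraries also differed in Xist, at 177 and 0.109 FPKM, and in the Y-linked Eif2s3y, listed at 0 and at 19.8 FPKM, so that the sex of the embryos and the genotype cannot be told apart.

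Promoters from RefSeq (GRCm38.p6), from 250 bases before to 50 after a start site, were at hand for 7 of the 10 genes, and 9 windows in all. They are shown for Ccnd3, whose transcripts start at separate sites, and for Rbl1, a known target of E2F. The upstream start of Ccnd3 lies at chr17:47504801-47505100 and the downstream start at chr17:47593217-47593516, both on the plus strand. Rbl1 lies at chr2:157204485-157204784 on the minus strand. All 3 are written 5′ to 3′ along the gene, and capitals mark letters that match a search sequence for E2F.
Ccnd3, upstream start: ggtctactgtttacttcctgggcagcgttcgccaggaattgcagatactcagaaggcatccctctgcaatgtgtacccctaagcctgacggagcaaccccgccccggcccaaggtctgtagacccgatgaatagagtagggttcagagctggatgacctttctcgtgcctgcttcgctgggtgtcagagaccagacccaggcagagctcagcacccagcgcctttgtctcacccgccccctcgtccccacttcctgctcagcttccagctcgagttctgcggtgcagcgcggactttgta
Ccnd3, downstream start: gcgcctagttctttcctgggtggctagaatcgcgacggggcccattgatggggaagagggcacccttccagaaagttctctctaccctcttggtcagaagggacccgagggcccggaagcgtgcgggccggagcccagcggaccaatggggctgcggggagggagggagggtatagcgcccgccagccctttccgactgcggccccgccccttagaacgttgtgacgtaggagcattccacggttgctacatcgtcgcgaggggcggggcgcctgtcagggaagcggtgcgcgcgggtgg
Rbl1: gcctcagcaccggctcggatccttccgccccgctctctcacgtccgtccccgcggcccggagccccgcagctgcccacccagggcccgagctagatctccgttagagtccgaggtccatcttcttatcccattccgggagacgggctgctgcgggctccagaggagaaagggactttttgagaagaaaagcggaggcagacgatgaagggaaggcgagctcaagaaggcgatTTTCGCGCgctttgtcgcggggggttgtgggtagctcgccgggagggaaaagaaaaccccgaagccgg

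The search covered the E2F letters TTTCGCGC, TTTCCCGC, TTTGGCGC and TTTGCCGC on both strands, and the CHR letters TTTGAA and TTCGAA of late cell cycle genes. Of the 9 windows only that of Rbl1 held a match, TTTCGCGC from base 233, which is 18 bases before the start site. The windows of E2f1 and Cdk6 do not hold the outer start of the RefSeq gene, which lies 466 and 2889 bp away from the start of the window's transcript, so the region before the outer start was not searched. TTTCGCGC was in 0.323% of 32851 mouse promoters of the same length, any of the 4 E2F sequences in 2.26% and either CHR sequence in 19.2%. A match of letters is a description of the sequence and not of binding.

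Both starts of Ccnd3 could be set beside the expression values. In the GENCODE vM1 annotation of mm9 they lie 88416 bp apart, as do the promoter windows. The annotated transcripts of 2113 and 1974 nt are each 5 nt shorter than a RefSeq transcript of the Rcor2fl/fl file. The transcript of 1979 nt, matched by length to the downstream start, made up 93.5% of Ccnd3 in Rcor2fl/fl, at 8.14 FPKM. Of the other transcripts, which the file puts at a shared start of their own, that of 2118 nt was at 0.563 FPKM, with an interval from 0 to 1.16 FPKM, and that of 2073 nt was listed at 0. Thus nearly all Ccnd3 in the control library was assigned to the downstream start. For Rbl1, the transcript of 4883 nt was at 7.23 FPKM, or 88.1% of the gene, and that of 2381 nt at 0.972 FPKM. The Rcor2cko values are given per gene, so that the transcripts were not compared between the libraries.

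Levels of the 10 genes spanned a wide range, and the order was nearly the same in both libraries. Cdk4 led in Rcor2fl/fl at 300.4 FPKM, above 98.9% of the 11777 genes that reached 1 FPKM in either library, here called the genes tested. Ccnd2 followed at 101 FPKM, Cdkn1b at 56.2 FPKM and Rb1 at 19.2 FPKM. The intervals of each of these were apart from those of the next gene. Ccnd1 at 10.7, E2f1 at 9.35, Ccnd3 at 8.70, Cdkn2c at 8.56 and Rbl1 at 8.20 FPKM formed a group in which each overlapped its neighbour. Cdk6 was the lowest at 5.18 FPKM, apart from Rbl1, and lay 58.0-fold below Cdk4. In the Rcor2cko library the order of the upper genes was unchanged, and Ccnd1, at 12.7 FPKM, was also apart from E2f1 at 8.96 FPKM. E2f1, Cdkn2c at 8.80, Rbl1 at 8.52 and Ccnd3 at 7.98 FPKM each overlapped the next in this group, and Cdk6, apart from Ccnd3, was again the lowest at 4.58 FPKM.

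**Figure D1:**
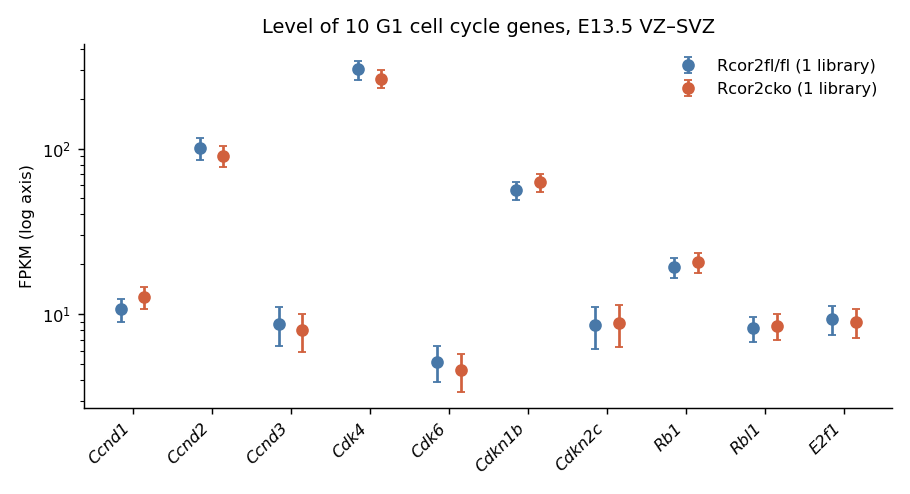
FPKM (log axis) of the 10 genes in the Rcor2fl/fl library (blue) and the Rcor2cko library (orange). Bars are the deposited 95% FPKM intervals, which overlap between the libraries for all 10 genes. Cdk4 is the highest and Cdk6 the lowest gene in both libraries.

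Between the libraries the G1 genes differed little. None of the 10 genes was past 1.5-fold, where 5.54% of the 11777 genes tested were, 3.79% higher and 1.76% lower in Rcor2cko. The log2 changes ran from -0.18 for Cdk4 to 0.24 for Ccnd1, with 5 genes higher and 5 lower, where 42.4% of all genes tested were higher and 57.6% lower. Their median was -0.01, beside -0.03 over all genes tested. The deposited FPKM intervals of the libraries overlapped for all 10 genes, whereas they were apart for 3.47% of all genes tested. Counting error alone was smaller than these differences in some genes. Of the 8 genes with fragments, the 95% counting interval lay above 0 for Ccnd1, Cdkn1b and Rb1 and below 0 for Ccnd2 and Cdk4. Over the 8460 genes with fragments the interval lay above 0 in 14.0% and below 0 in 23.2%. The 8 genes have more fragments than most, a median of 2906 over both libraries against 1189. Among the 6940 genes with at least 350 fragments, the smallest number of the 8, the shares were 13.7% and 25.8%. This limit drops only the genes with the fewest fragments and does not match the depth of the 8. The share of the 8 genes below 0, at 25.0%, was near these values, and the share above 0 was 37.5%, or 3 genes.

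**Figure D2:**
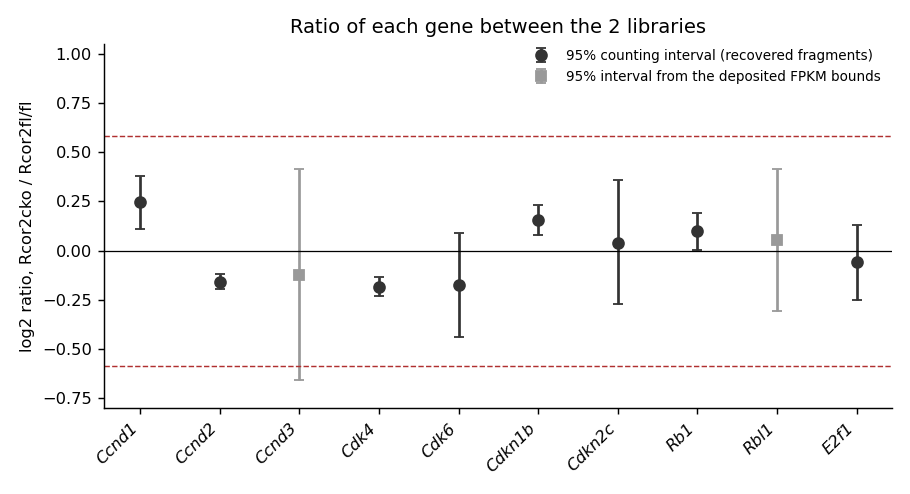
Difference of each gene between the libraries as a log2 ratio (Rcor2cko to Rcor2fl/fl). Circles show the ratio of recovered fragments with its 95% counting interval, squares (Ccnd3 and Rbl1) the log2 ratio of (FPKM + 0.1) with an interval combined from the deposited FPKM bounds, and dashed lines mark 1.5-fold. No circle or square reaches a dashed line, although the lower bar of Ccnd3 crosses it.

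Among the D-type cyclins, Ccnd1 was higher and Ccnd2 lower in the Rcor2cko library. Ccnd1 (mm9, chromosome 7, 152115836 to 152125774, minus strand), the cyclin induced by many growth signals, measured 10.7 FPKM from 725 fragments in Rcor2fl/fl and 12.7 FPKM from 1160 fragments in Rcor2cko. The log2 change was 0.24, with a counting interval from 0.11 to 0.38. Among 8299 genes that reached 5 FPKM in each library, 13.4% had a larger change in either direction. Ccnd2 (chromosome 6, 127075797 to 127101066, minus strand), a cyclin of cortical progenitors and the most abundant of the 3 D-type cyclins here, was at 101 and 90.3 FPKM. Its 10587 and 12818 fragments gave a log2 change of -0.16 (interval -0.20 to -0.12), and 30.4% of the 8299 genes had a larger change. Ccnd3 (chromosome 17, 47642000 to 47736632, plus strand) was at 8.70 FPKM, with an interval from 6.42 to 11.0 FPKM, and at 7.98 FPKM, from 5.88 to 10.1 FPKM. The log2 change of -0.12 was smaller than the interval from the deposited bounds, of 0.54 to either side.

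Both G1 kinases had lower values in the Rcor2cko library. Cdk4 (chromosome 10, 126500590 to 126504976, plus strand) was at 300.4 and 264 FPKM, from 6520 and 7714 fragments. Its log2 change of -0.18 had an interval from -0.23 to -0.14, and 23.4% of the 8299 genes had a larger change. Cdk6 (chromosome 5, 3343893 to 3523218, plus strand) was at 5.18 and 4.58 FPKM from 222 and 265 fragments. Its log2 change of -0.17 was close to that of Cdk4, but the interval, from -0.44 to 0.09, included 0, so that no difference in Cdk6 was detectable at this depth.

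Of the inhibitors, Cdkn1b was the one beyond counting error. Cdkn1b (chromosome 6, 134870419 to 134875531, plus strand) was at 56.2 FPKM from 2340 fragments and at 62.5 FPKM from 3510 fragments. The log2 change of 0.15 had an interval from 0.08 to 0.23, and 31.4% of the 8299 genes had a larger change. Cdkn2c (chromosome 4, 109333481 to 109339794, minus strand) was at 8.56 and 8.80 FPKM. It rests on 147 and 203 fragments, the fewest of the 8 genes, and its change of 0.04 had an interval from -0.27 to 0.36. A change of Cdkn2c as large as that of Ccnd1 or Cdk4 lies within this interval.

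The pocket proteins and E2f1 had log2 changes within 0.10 of 0. Rb1 (chromosome 14, 73583480 to 73725629, minus strand), the retinoblastoma protein, was at 19.2 and 20.6 FPKM from 1606 and 2320 fragments. Its log2 change of 0.10 had an interval from 0.01 to 0.19, of which the lower bound is near 0, and 51.4% of the 8299 genes had a larger change. Rbl1 (chromosome 2, 156971629 to 157030270, minus strand), whose promoter with the E2F letters is shown above, was at 8.20 FPKM, with an interval from 6.79 to 9.62 FPKM, and at 8.52 FPKM, from 6.98 to 10.1 FPKM, a log2 change of 0.05. E2f1 (chromosome 2, 154385143 to 154395628, minus strand), the founding member of the E2F family, was at 9.35 and 8.96 FPKM from 399 and 516 fragments (log2 change -0.06, interval -0.25 to 0.13). Neither gene differed between the libraries beyond its interval.

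Genes on the opposite strand share exonic bases with some of the 10 in GENCODE vM1, and how strand was used in counting is not given in the sources used here. Oraov1 shares 818 bases with Ccnd1 and had 11.7 and 11.9 FPKM (log2 change 0.02, beside 0.24 for Ccnd1). Tspan31 shares 604 bases with Cdk4 and was at 33.0 and 31.3 FPKM, well below Cdk4. Bysl shares 353 bases with Ccnd3, and its log2 change was -0.24. Within Rb1, Lpar6 shares 408 and Rcbtb2 488 bases, with changes of 0.20 and -0.10.

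A ratio of genes within a library does not depend on a single scaling factor for the library. Ccnd2 made up 83.9% of the summed FPKM of the D-type cyclins in Rcor2fl/fl and 81.4% in Rcor2cko, Ccnd1 8.89% and 11.4%, and Ccnd3 7.24% and 7.19%. The sum itself was 120 and 111 FPKM. The pocket proteins kept similar shares: Rb1 was 55.4% and 56.7% of the sum with Rbl1 and Rbl2, Rbl1 23.6% and 23.5%, and Rbl2 20.9% and 19.8%. The ratio of Cdk4 to Cdk6 was 58.0 and 57.7, and the log2 change of this ratio, -0.01, became 0.02 with quantile normalization. Cdkn1b was 0.468 of the summed D-type cyclins in Rcor2fl/fl and 0.563 in Rcor2cko, a log2 change of 0.27. Cdkn2c was 0.0280 and 0.0327 of the sum of Cdk4 and Cdk6, where Cdkn2c itself did not differ beyond counting error.

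**Figure D3:**
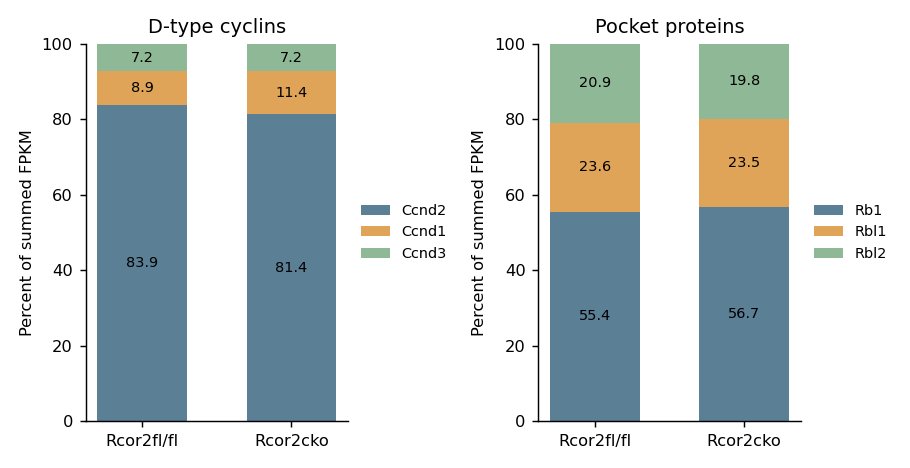
Percent of the summed FPKM of the D-type cyclins (left) and of the pocket proteins (right) taken by each gene in the 2 libraries. Ccnd1 takes 8.89% of the D-type cyclins in Rcor2fl/fl and 11.4% in Rcor2cko, while the pocket proteins differ by less than 1.5 percentage points.

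All 28 pairs of the 8 genes with fragments were then compared by the change of their ratio, with a conditional exact 95% interval for counting error, not adjusted for the number of pairs. In 10 of the 28 pairs the interval excluded 0. Pairs of other genes were not counted, so this number is not read against a background. Ccnd1 was higher relative to Ccnd2 by 0.40 (interval 0.26 to 0.54), relative to Cdk4 by 0.43 (0.29 to 0.57), relative to Cdk6 by 0.42 (0.12 to 0.72) and relative to E2f1 by 0.31 (0.07 to 0.54). Ccnd2 was lower relative to Cdkn1b by a log2 change of -0.31 (-0.40 to -0.23) and relative to Rb1 by -0.26 (-0.36 to -0.16). Cdk4 stood at -0.34 relative to Cdkn1b (-0.43 to -0.25) and at -0.28 relative to Rb1 (-0.39 to -0.18), and Cdk6 at -0.33 relative to Cdkn1b (-0.60 to -0.05). Cdkn1b was also higher relative to E2f1, by 0.21 (0.01 to 0.42). For Ccnd2 relative to Cdk4, its kinase partner, the log2 value was 0.03, with an interval from -0.03 to 0.09. The ratios of Ccnd1, Cdkn1b and Rb1 to Ccnd2 and Cdk4 restate the single-gene intervals above, since they rest on the same fragments. No interval among Ccnd1, Cdkn1b and Rb1 excluded 0.

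**Figure D4:**
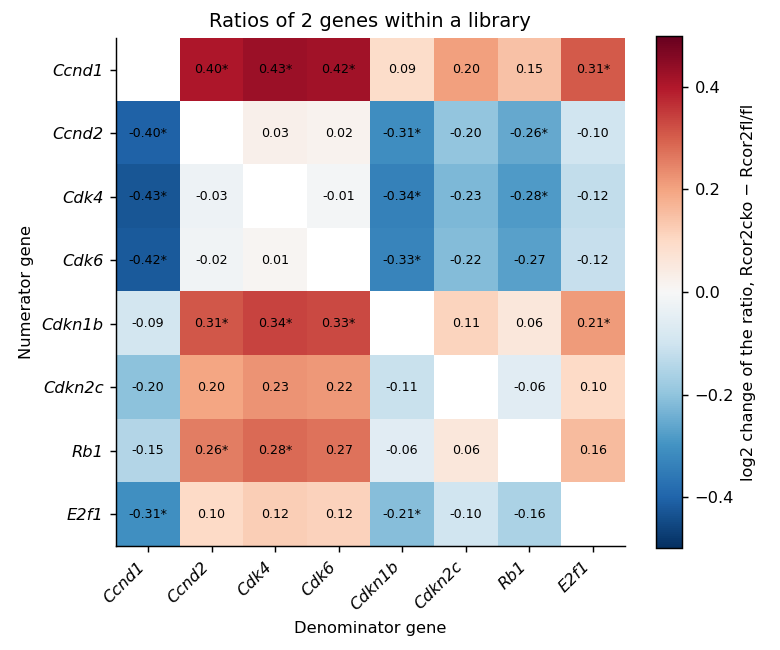
Log2 change, Rcor2cko against Rcor2fl/fl, of the ratio of the row gene to the column gene for the 8 genes with recovered fragments. Red cells are ratios higher in Rcor2cko, blue cells lower, and a star marks a 95% counting interval that excludes 0, as in 10 of the 28 pairs.

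Among the other G1/S regulators tested, log2 changes ran from -0.33 to 0.17, where those of the 10 genes ran from -0.18 to 0.24. Of 28 other G1/S regulators, 26 were among the genes tested, and none was past 1.5-fold, beside 5.54% of all genes tested. Higher values were seen in 10 and lower values in 16, where 57.6% of all genes tested were lower, and the median log2 change was -0.05. Of the 16 with fragments, 1 interval lay above 0 and 4 below, beside 14.0% above and 23.2% below over all genes with fragments. Ccne1, a cyclin partner of Cdk2, was at 4.19 and 3.69 FPKM, Ccne2 at 2.76 and 2.27 FPKM, and Cdk2 itself at 14.0 and 14.1 FPKM. Ccna2, the S-phase cyclin, was at 43.4 and 38.9 FPKM, a change of -0.16 (-0.24 to -0.07). The inhibitor Cdkn1a was at 2.38 and 2.69 FPKM, and Cdkn1c, of the same family as Cdkn1b, at 20.8 and 23.5 FPKM, a change of 0.17 with no counting interval. The other 2 genes of the list, named here because they failed the filter on level, were Cdkn2a, at 0.144 FPKM in Rcor2fl/fl and listed at 0 in Rcor2cko, and Cdkn2b, at 0.133 and 0.0329 FPKM, or 3 fragments and 1.

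Among the E2F family, the repressor E2f7 had the change farthest from 0, at 4.05 and 3.19 FPKM and -0.33 (-0.54 to -0.14), and its relative E2f8 was at 4.80 and 4.28 FPKM, -0.16 (-0.38 to 0.06). The activators were at 2.02 and 2.21 FPKM for E2f2 and at 8.21 and 7.37 FPKM for E2f3, of which E2f3, at -0.15, had an interval from -0.30 to -0.01. E2f4 and E2f5, which act with pocket proteins in resting cells, were at 19.3 and 18.3 FPKM (-0.07) and at 11.1 and 11.8 FPKM (0.09), and both intervals included 0. Tfdp1, a dimer partner of E2F factors and the most abundant of this group at 57.5 and 48.7 FPKM, had a change of -0.24 (-0.34 to -0.14), and Tfdp2, at 10.4 and 11.5 FPKM, one of 0.14. The third pocket protein, Rbl2, was at 7.26 and 7.18 FPKM.

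E2F targets of DNA replication were also within 1.5-fold, which 5.54% of all genes tested were past. All 26 genes of the list had at least 1 FPKM, 8 were higher and 18 lower, and the median was -0.09. Their log2 changes ran from -0.36 to 0.34, a wider range than that of the genes named below. Of the 20 with fragments no interval lay above 0 and 7 lay below, beside the 14.0% above and 23.2% below over all genes with fragments, and most genes tested (57.6%) were likewise lower. Mcm2, a subunit of the replicative helicase, was at 27.3 and 25.0 FPKM (-0.13, interval -0.22 to -0.03), and Pcna, the sliding clamp, at 135 and 135 FPKM (-0.003, interval -0.07 to 0.07). Cdc6, which loads the helicase, was at 3.17 and 2.97 FPKM. Of 7 genes listed with MuvB, most are subunits of the DREAM complex, through which pocket proteins repress cell cycle genes. Mybl2 and Foxm1, also in the list, are not DREAM subunits. The 7 genes had a median of -0.07, with 1 higher and 6 lower, where 57.6% of all genes tested were lower. None was past 1.5-fold, beside 5.54% of all genes tested. Of the 4 with fragments no interval lay above 0 and 2 lay below, beside the same 14.0% and 23.2%.

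Among 18 genes that act upstream of D-type cyclins and G1, 17 were among the genes tested. Of these, 2 were more than 1.5-fold lower and none higher, beside 1.76% and 3.79% of all genes tested. Both of the 2 genes were low. Etv4, a target of Fgf signalling, was at 1.51 FPKM from 61 fragments and at 0.662 FPKM from 36, a log2 change of -1.08 (-1.83 to -0.57). Tcf7l2, a transcription factor of the Wnt pathway, was at 1.63 FPKM in Rcor2fl/fl and had a change of -0.65. Mycn, which drives progenitor growth, was at 39.4 and 33.3 FPKM, -0.24 (-0.34 to -0.15). In all, 4 of the 17 were higher and 13 lower, where 57.6% of all genes tested were lower. The median was -0.10 beside -0.03 over all genes tested. Of the 11 with fragments no interval lay above 0 and 5 lay below, beside 14.0% above and 23.2% below over all genes with fragments.

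**Figure D5:**
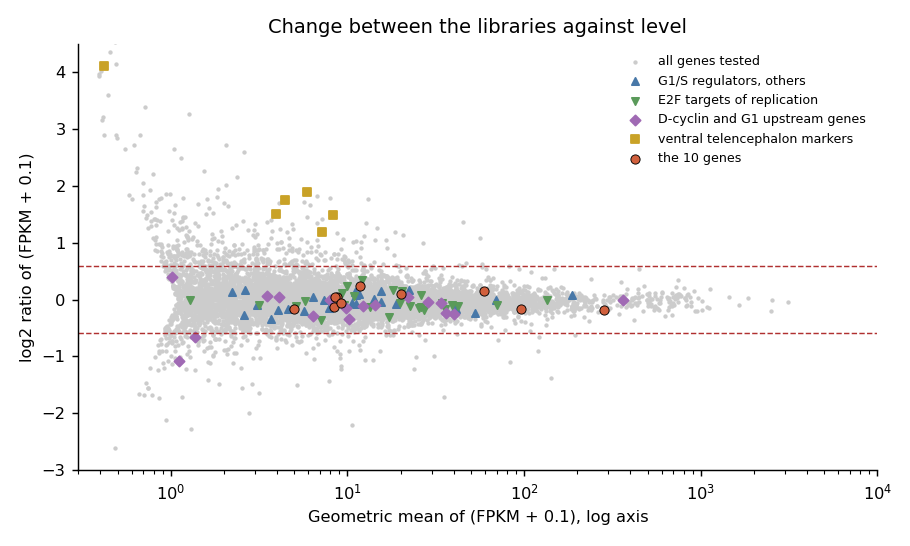
Log2 ratio of (FPKM + 0.1) between Rcor2cko and Rcor2fl/fl against the geometric mean of (FPKM + 0.1) on a log axis, for the 11777 genes tested (grey), the 10 genes (orange) and the lists. Dashed lines mark 1.5-fold, and 20 genes lie beyond the vertical axis. The 10 genes lie between the lines, and the ventral telencephalon markers lie above.

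Markers of cell types had the following levels beside these genes, and their part in the differences was not tested. Of 6 markers of proliferating cells, all 6 were lower, with a median of -0.17, where 57.6% of all genes tested were lower. Counting intervals lay below 0 for 5 of the 6, beside 23.2% over all genes with fragments and 25.8% of those with at least 350 fragments. Neither share is matched in depth to these markers, of which Mki67 had 8476 and 9742 fragments, and deeper genes exclude 0 at smaller changes. The interval of Pcna, which is also among the E2F targets above, included 0 (-0.003, -0.07 to 0.07). The summed level of the 6 markers was 317 and 295 FPKM, and Mki67 was at 45.5 and 38.7 FPKM, -0.23 (-0.28 to -0.19). The 8 radial glia markers summed to 873 and 1021 FPKM, with 3 higher and 5 lower and a median of -0.08, and Fabp7, one of the 8, was at 372 and 539 FPKM, a difference greater than that of the sum. The 4 markers of intermediate progenitors summed to 234 and 224 FPKM, with 2 higher and 2 lower. The 6 neuron markers summed to 1526 and 1485 FPKM, with 3 higher and 3 lower, so that the dissected zones also held neurons in both libraries. Counting intervals lay above 0 in 2 and below in 3 of 7 radial glia markers with fragments. For neuron markers they lay above 0 in 1 and below in 2 of 4, and for the 3 intermediate progenitor markers with fragments all included 0. All 6 ventral telencephalon markers were more than 1.5-fold higher in Rcor2cko, with a summed level of 17.0 and 52.1 FPKM, and Gsx2 was listed at 0 in Rcor2fl/fl. The 5 choroid plexus markers summed to 0.444 and 60.9 FPKM, of which Ttr, listed at 0 in Rcor2fl/fl, made up 57.8 FPKM. In Rcor2fl/fl 2 of these 5 were listed at 0. The 4 microglia markers summed to 8.10 and 12.2 FPKM with 2 of 4 past 1.5-fold, and the 5 endothelium markers to 25.8 and 27.5 FPKM with none past it. Erythroid markers were at 86.2 and 77.1 FPKM in sum, with all 3 of those tested lower. The 4 markers of the meninges stayed under 1 FPKM in both libraries, and Lum was listed at 0 in Rcor2fl/fl.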

How the data were processed

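RNA-seq of the E13.5 VZ–SVZ was analysed in 1 Rcor2fl/fl and 1 Rcor2cko library. The authors prepared stranded mRNA libraries, mapped reads to mm9 with TopHat (v2.0.3 per the paper, while the submitters' processing notes name TopHat 1.3.3 and Cufflinks 1.2.0) and deposited FPKM values with 95% bounds, per RefSeq transcript for Rcor2fl/fl (27641 rows) and per gene for Rcor2cko (21896 rows).

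Rows of a gene were summed, and the half-widths of their bounds were added in quadrature. Genes that reached 1 FPKM in either library were compared on the log2 scale after adding 0.1, with 1.5-fold as the threshold. Having 1 library each, the genotypes could not be tested, and p-values are not given. The steps were fitted in 14350 genes listed with a single RefSeq transcript of 1000 nt or more. In these, FPKM times the length less a fitted offset (194.0 and 200.9 nt) is a whole multiple of 1 fragment. Of values up to 100 fragments, 99.3% of 4013 and 99.4% of 3959 lay within 0.1 of a whole number. Intervals and floors cover counting error only. Taking 3 fragments as the floor, a transcript of 2000 nt is detectable from 0.0882 FPKM in Rcor2fl/fl and 0.0654 FPKM in Rcor2cko. The steps were tested on simulated data.

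Members and lists were chosen with earlier results of these data known. All 10 members are named, and of the lists the genes past 1.5-fold, the cell type markers and a set of names written down with the rule. Positions come from the GENCODE vM1 annotation of NCBIM37 (mm9). Map2 is listed under an older symbol, matched through RefSeq synonyms. Alternatives were pseudocounts of 1 and 0.01, median, total, upper-quartile and quantile scaling, the highest row per gene, other filters, a 2-fold threshold and non-overlapping FPKM intervals. The pairwise ratios, and the counting intervals under total and upper-quartile scaling, were added after seeing the data. Protein sequences, and promoters of Ccnd1, Ccnd2 and Rb1, were not used here. Python 3.11.15 with numpy 2.4.6, pandas 2.3.3, scipy 1.17.1 and matplotlib 3.10.9 was used.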

Additional observations from a re-analysis of the deposited data

How the results depend on the processing

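No paired analysis was possible because each genotype has a single library. All 10 genes kept their sign under the 7 alternatives of pseudocount, scaling and row choice, and none passed 1.5-fold under any alternative run. Ccnd1 ranged from 0.23 to 0.28 and Cdk4 from -0.18 to -0.15. Rbl1 moved most, to 0.23 with the highest row per gene, a setting that lowers the Rcor2fl/fl library alone, and quantile normalization took Ccnd2 to -0.12. Ccnd1, Cdkn1b and Rb1 stayed above 0 and Ccnd2 and Cdk4 below 0 in their counting intervals with median, total and upper-quartile scaling. By non-overlap of the deposited FPKM intervals, which are wider, 0 genes were higher and 0 lower.

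The numbers of genes past 1.5-fold over all genes, 446 higher and 207 lower, moved to 243 and 100 with a pseudocount of 1, 162 and 62 above 2-fold, 220 and 81 where the FPKM intervals did not overlap, 1287 and 672 when all genes entered, 139 and 69 when a gene had to reach 5 FPKM in either library, and 262 and 128 when it had to reach 1 FPKM in each. The highest row per gene, a setting that can lower only Rcor2fl/fl values, gave 1214 higher. Fewer genes pass by construction under the larger pseudocount and the stricter filters and thresholds, and more when all genes enter. Depth limits Cdk6 and Cdkn2c most, with under 300 fragments in each library.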
